A study of Mus musculus with 5 samples.

Results

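Genes that FoxO factors induce are used as a transcriptional readout of phosphoinositide 3-kinase (PI3K) activity. FoxO factors are forkhead transcription factors, and the kinase Akt, acting downstream of PI3K, phosphorylates them so that 14-3-3 proteins hold them in the cytoplasm. When PI3K is inhibited they enter the nucleus and induce genes of growth arrest, protein breakdown, mitochondrial quality control and insulin signalling. In white matter, PI3K and Akt signalling is known for its part in the growth of myelin by oligodendrocytes. The genes described here are 3 factors (*Foxo1*, *Foxo3* and *Foxo4*) and 7 genes that FoxO factors induce (*Fbxo32*, *Irs2*, *Ccng2*, *Bcl6*, *Pink1*, *Sesn1* and *Txnip*), taken by name. They are 10 of the 12935 genes tested and hold 25 of the 45101 probe sets of the array, where a probe set is a group of short probes that together report 1 transcript. Of these 25 probe sets 23 passed a filter on low signal, and all 10 genes kept at least 1.

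RNA came from optic nerves of C57BL/6 mice aged 35 to 45 postnatal days and was hybridised to Affymetrix mouse arrays. The nerves had spent 3 days in organotypic culture with the PI3K inhibitor LY294002. There were 3 arrays of L-LY29, the low concentration, and 2 of H-LY29, the high one. The labels give 0.5 µM and 50 µM, while the study's methods give a higher concentration than the labels for L-LY29 in nerves of this age, and which one the arrays received was not settled here. Some label entries write LY295002 for the compound. No control array was analysed here, and every difference is L-LY29 minus H-LY29 in log2 units. The methods state that the retina was intact when nerves were removed and that attached tissue was cleaned away. The methods state how many nerves and mice served the transcriptomic work, but not how they were divided over the arrays. Whether each array had nerves of its own is not given, so p-values measure only array-to-array spread.

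The doses were far apart on most of the array. Of the genes tested, 73.8% passed the limma test, 27.1% higher and 46.6% lower in L-LY29, and the doses did not overlap for 83.1%. The median difference of all genes was −0.26, and it was 0.06 after quantile normalization and −0.05 with equal array medians, so differences are to be read against that shift. Sorted values nearly coincided within a dose and not between doses, and whether the doses were normalised together is not given, so an offset between them cannot be told apart from dose. Bacterial poly-A RNAs, which are added to the RNA before labelling, averaged 10.22 in L-LY29 and 3.17 in H-LY29, with no single H-LY29 value above 4.30. For actin, the 3′ minus 5′ difference was 0.43 in L-LY29, against 0.92 in H-LY29. Labelling and dose cannot be told apart, since each dose holds all of its arrays on one side of these controls. Markers of the nerve's glia were present, with summed linear signals of 9 oligodendrocyte genes of 74476 to 76952 in L-LY29, against 60157 to 62984 in H-LY29. The brightest genes weigh most in such a sum. By gene, 6 of the 9 were called higher in L-LY29 and 3 lower (*Mog*, *Opalin* and *Cldn11*). Summed signals of 10 ocular surface markers were 4017 to 22705 in L-LY29, against 229 to 275 in H-LY29, and those of 9 fibroblast markers were 3567 to 4890 in L-LY29, against 15806 to 19489 in H-LY29. Of the fibroblast markers 7 were called lower in L-LY29 and 2 higher (*Ogn* and *Igf2*). The part of these tissues in the results on the 10 genes was not tested. In RNA of whole nerves, fewer cells of a type and less RNA per cell cannot be told apart.

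FoxO factors bind short AT-rich elements near the start of their target genes, and the windows of 250 bases before to 50 bases after the start site were searched for 3 of these. RefSeq promoter sequences (GRCm38.p6) were matched for 8 of the 10 genes, in 10 windows. The elements were GTAAACA, the forkhead consensus, its variant ATAAACA, and CAAAACA, the core of the insulin response element, on both strands. GTAAACA lay in 2 of the 10 windows and in 3.65% of all 32851 windows, CAAAACA in 2 of the 10 and in 6.28% of all, and ATAAACA in 0 of the 10 and in 4.60% of all. The pieces that hold a match are shown because they are where these genes carry the letters of a FoxO element, which is marked in capitals and reads as its reverse complement for *Irs2* and *Sesn1*.
Txnip, chr3:96557800-96557879, + strand: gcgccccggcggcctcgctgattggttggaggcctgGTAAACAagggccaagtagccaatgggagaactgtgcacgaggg
Sesn1, chr10:41810585-41810614, + strand: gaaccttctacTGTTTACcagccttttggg
Irs2, chr8:11008930-11009009, − strand: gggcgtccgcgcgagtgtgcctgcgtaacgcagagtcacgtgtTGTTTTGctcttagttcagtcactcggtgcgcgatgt
Ccng2, chr5:93267493-93267572, + strand: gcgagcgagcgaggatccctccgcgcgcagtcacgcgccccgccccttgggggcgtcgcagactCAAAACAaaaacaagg
The match of *Txnip* begins at position −121 relative to its start site, those of *Irs2* and *Ccng2* at −37 and −16, and that of *Sesn1* lies just after 1 of its 2 start sites. The windows of *Foxo1*, *Foxo3*, *Bcl6* and *Pink1* held none of these letters. A match is a description of the sequence and does not show binding.

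Each gene was first read from its brightest probe set. On it 4 of the 10 genes were higher in L-LY29 (*Fbxo32*, *Irs2*, *Pink1* and *Ccng2*), 5 were lower (*Foxo3*, *Bcl6*, *Foxo1*, *Sesn1* and *Foxo4*) and *Txnip* did not pass, a share of 90.0% called against 73.8% of all genes. The median difference was −0.45, beside −0.26 for all genes. All 3 factors were lower, and the induced genes went both ways. RNA of a factor does not give the location or activity of its protein, which were not measured here. The share of called genes is high on the whole array too, so it is not a result about these genes. By size, 1.13% of all genes tested differed by more than *Fbxo32*, 7.75% by more than *Foxo3* and 9.83% by more than *Bcl6*, and the other 7 genes lay between 23.3% and 68.3%.

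**Figure D1:**
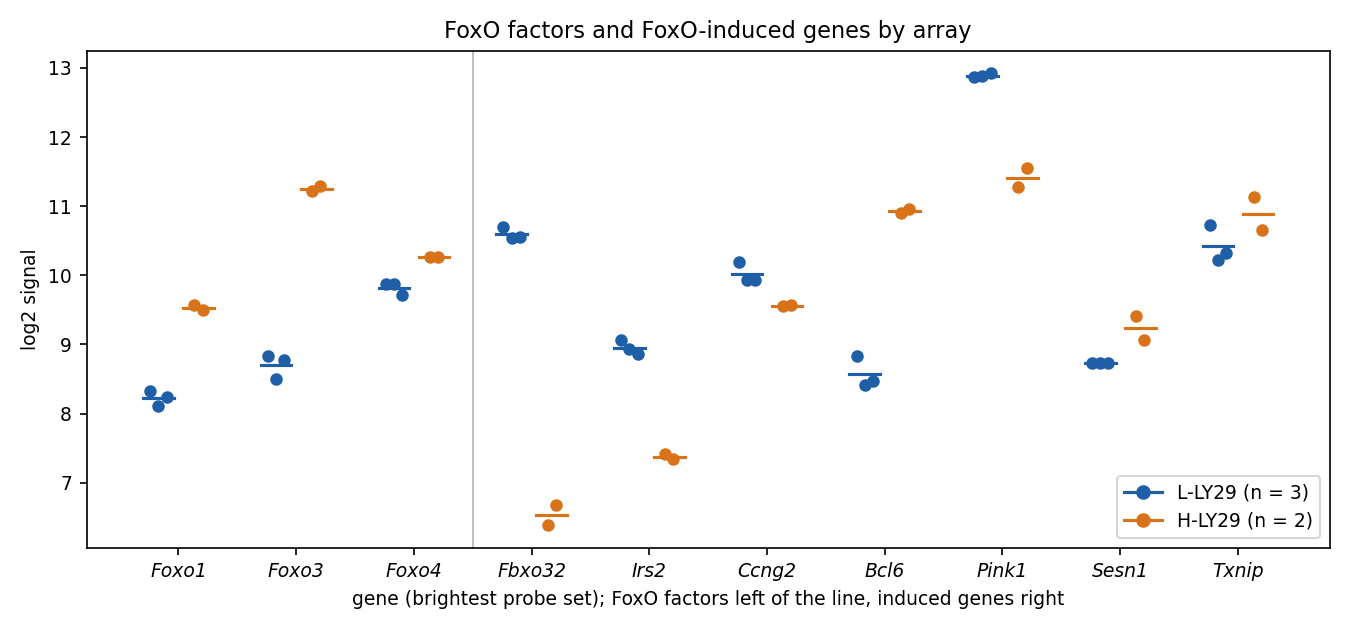
Points give the log2 signal on each array, and lines the mean of a dose, of the brightest probe set of 10 genes, for 3 L-LY29 and 2 H-LY29 arrays. *Fbxo32*, *Irs2*, *Ccng2* and *Pink1* lie higher on every L-LY29 array, and *Txnip* is the gene whose doses overlap.

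*Foxo3*, the factor best known for growth arrest and cell death, had the widest gap of the factors. Its brightest probe set (1434831_a_at) gave 8.84, 8.50 and 8.77 on the L-LY29 arrays and 11.22 and 11.29 on the H-LY29 arrays, with no overlap. The difference was −2.55 (standard error 0.12, adjusted p = 7.17e-05), which is 5.87-fold lower in L-LY29. A second probe set of *Foxo3*, designed from the same GenBank entry, gave 7.83, 7.79 and 7.74 in L-LY29 and 10.70 and 10.71 in H-LY29, a difference of −2.92. The third gave 5.85, 5.47 and 5.51 in L-LY29 against 5.30 and 5.32 in H-LY29, and its difference of 0.30 did not pass (adjusted p = 0.128 by limma over all probe sets), though it did after quantile normalization and with equal array medians, at 0.52 and 0.51. A further probe set names *Foxo3* together with a predicted gene and was therefore not tested. It gave 8.32, 8.29 and 8.21 in L-LY29 and 5.34 and 5.29 in H-LY29, so it ran opposite to the 2 probe sets with the strong difference. The mean of the 3 tested probe sets differed by −1.72.

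*Foxo1*, which governs gluconeogenic genes in liver and responds to insulin, was lower in L-LY29 on its brightest probe set (1416983_s_at), at 8.33, 8.11 and 8.24 against 9.57 and 9.49 in H-LY29. This is a difference of −1.31 (standard error 0.09, adjusted p = 1.86e-04), which is 2.47-fold lower in L-LY29. A second (1416982_at) gave 6.91, 6.73 and 6.57 in L-LY29 and 8.64 and 8.90 in H-LY29, at −2.03. The third tested probe set (1416981_at) was higher in L-LY29, at 8.04, 8.04 and 7.84 against 6.85 and 6.59 in H-LY29, with a difference of 1.26 (standard error 0.13, adjusted p = 5.64e-04). These 3 probe sets were designed from 1 GenBank entry, and the doses did not overlap on any of them. One more, under the filter, gave 4.19, 4.19 and 4.03 in L-LY29 against 4.42 and 4.59 in H-LY29. The direction of *Foxo1* therefore rested on the probe set that was read, and the mean of the 3 was −0.69 (adjusted p = 0.00117).

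*Foxo4*, the X-linked factor of the family, also had probe sets in opposite directions. The brighter (1456753_at) gave 9.88, 9.88 and 9.72 in L-LY29 and 10.26 and 10.27 in H-LY29, a difference of −0.44 (standard error 0.07, adjusted p = 0.00323), not far from the −0.26 of all genes. The other (1422149_at) gave 6.92, 6.67 and 6.54 in L-LY29 against 4.02 and 4.28 in H-LY29. Both H-LY29 values were under 4.77, the level that the filter asks of a probe set's mean, and no higher than the poly-A controls reached on those arrays. This probe set passed the filter through its L-LY29 values, so it gives the order of the doses and no size or test is read from it. The direction of *Foxo4* was therefore read from the brighter probe set alone.

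**Figure D2:**
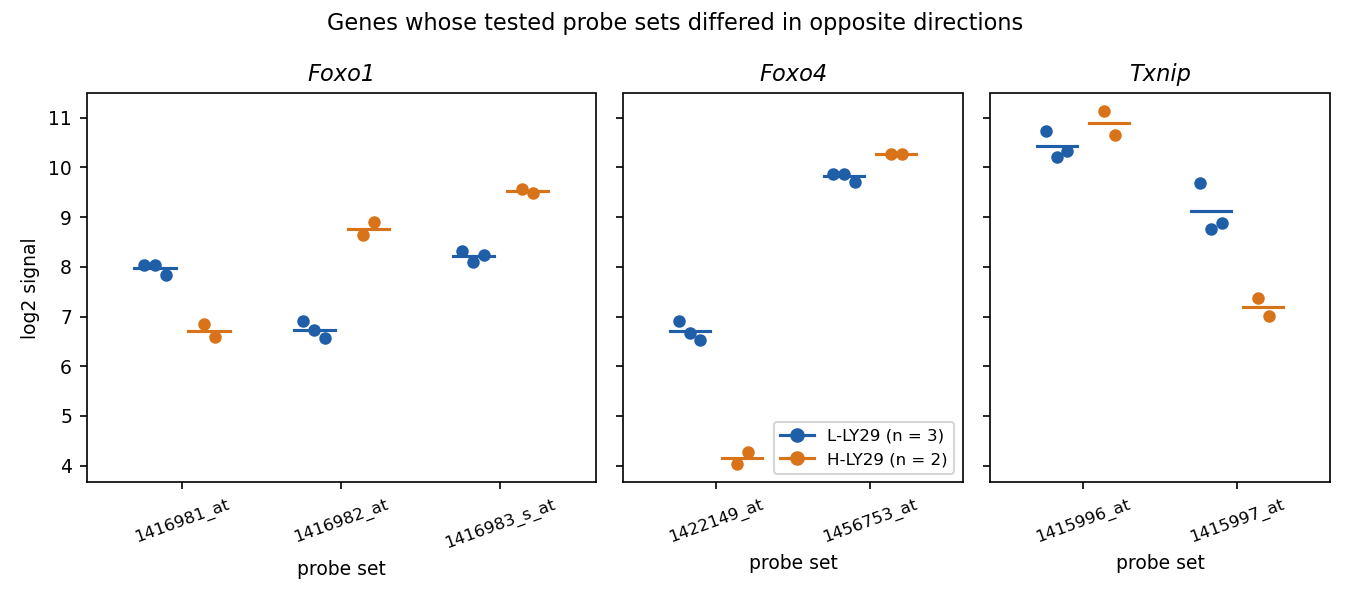
Points give the log2 signal on each array, and lines the mean of a dose, for the tested probe sets of *Foxo1*, *Foxo4* and *Txnip*, for 3 L-LY29 and 2 H-LY29 arrays. Within each gene 1 probe set lies higher in L-LY29, that of *Foxo4* with H-LY29 values of 4.02 and 4.28 at the level of the poly-A controls, while the brightest lies lower, at −1.31, −0.44 and −0.47, the last without passing the test.

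*Fbxo32* encodes atrogin-1, the F-box subunit of a ubiquitin ligase that is induced by FoxO factors in wasting muscle. It was the gene with the strongest difference of the 10. Its brightest probe set (1435265_at) gave 10.70, 10.54 and 10.55 in L-LY29 and 6.38 and 6.67 in H-LY29, far apart and tight within each dose. The difference was 4.07 (standard error 0.11, adjusted p = 4.24e-05), which is 16.8-fold higher in L-LY29. The other 2 probe sets, designed from another GenBank entry, were higher too, by less. One gave 8.96, 8.73 and 8.38 in L-LY29 and 7.40 and 7.77 in H-LY29, at 1.11 (adjusted p = 0.00625), and the other 6.97, 6.89 and 6.71 against 6.33 and 6.16 in H-LY29, at 0.61 (adjusted p = 0.00753). All 3 were called in the same direction, and the size ranged from 0.61 to 4.07 with the probe set. Of 10 skeletal muscle markers 3 passed the filter, with summed signals of 194 to 197 in L-LY29, against 107 to 127 in H-LY29. Muscle actin (*Acta1*) was at 6.16 in L-LY29 against 4.76 in H-LY29, and the myosin heavy chain genes on the list did not pass. The part of muscle RNA in the *Fbxo32* signal was not tested.

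*Irs2*, an adaptor of the insulin and IGF1 receptors upstream of PI3K, has 1 probe set (1443969_at). It gave 9.07, 8.93 and 8.86 in L-LY29 and 7.41 and 7.35 in H-LY29. This is a difference of 1.57 (standard error 0.09, adjusted p = 1.16e-04), which is 2.98-fold higher in L-LY29. Its call held with each array left out, at 1.52 to 1.62. *Irs1*, the other main adaptor of these receptors, named after its value was seen, was lower in L-LY29, at 6.17 against 9.47 in H-LY29 (difference −3.30, standard error 0.32, adjusted p = 5.40e-04).

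*Pink1*, the kinase that marks damaged mitochondria for removal, was the gene whose probe sets were closest to each other. The brightest (1441937_s_at) gave 12.87, 12.88 and 12.92 in L-LY29 and 11.27 and 11.55 in H-LY29, at 1.48 (standard error 0.09, adjusted p = 1.28e-04), which is 2.78-fold higher in L-LY29. The other, from a separate design sequence, gave 12.78, 12.77 and 12.76 in L-LY29 and 11.06 and 11.33 in H-LY29, at 1.58. The L-LY29 arrays were nearly level on both, and most of the spread was between the 2 H-LY29 arrays.

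*Ccng2* encodes cyclin G2, an unusual cyclin that rises in cells leaving the cell cycle. Its brightest probe set (1416488_at) gave 10.19, 9.93 and 9.93 in L-LY29 against 9.56 and 9.57 in H-LY29. The difference of 0.46 (standard error 0.10, adjusted p = 0.00945) no longer passed without H-LY29 replicate 1 (0.45, adjusted p = 0.0820) or H-LY29 replicate 2 (0.46, adjusted p = 0.0776). The second probe set, designed from the same GenBank entry, gave 8.24, 7.68 and 7.79 in L-LY29 and 4.96 and 4.76 in H-LY29. Its H-LY29 values lay near 4.77, the level of the filter, and under the medians of those arrays, 5.56 and 5.54. It therefore gives the order of the doses, and no size or test is read from it. Both probe sets were higher in L-LY29.

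*Bcl6*, a transcriptional repressor best known from germinal centre B cells, ran the other way. Its brightest probe set (1421818_at) gave 8.82, 8.41 and 8.46 in L-LY29 and 10.90 and 10.95 in H-LY29. This is a difference of −2.36 (standard error 0.14, adjusted p = 1.33e-04), which is 5.13-fold lower in L-LY29. Its other probe set, from the same GenBank entry, gave 6.79, 6.24 and 6.79 in L-LY29 against 7.24 and 6.88 in H-LY29, and −0.45 did not pass (adjusted p = 0.129). After quantile normalization this second probe set was at 0.08, and did not pass either.

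*Sesn1* encodes sestrin 1, a stress protein that restrains mTORC1. On its brightest probe set (1433711_s_at) all 3 L-LY29 arrays held the same value to the last digit, 8.735, against 9.41 and 9.07 in H-LY29. This is a difference of −0.51 (standard error 0.12, adjusted p = 0.0121). It did not pass after quantile normalization (−0.12, adjusted p = 0.371) or with equal array medians (−0.29, adjusted p = 0.0582). The other 2 tested probe sets did not pass, at −0.35 and 0.14, and after quantile normalization they were at 0.14 and 0.61, the second of which then passed. One more probe set, under the filter, gave 3.83, 4.39 and 4.39 in L-LY29 and 5.10 and 5.12 in H-LY29. *Sesn1* thus had no direction that held across scalings and probe sets. Of its paralogues, named after their values were seen, *Sesn2* was lower in L-LY29, at −2.05 (adjusted p = 2.79e-04), and *Sesn3* was at −0.18 (adjusted p = 0.183).

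*Txnip* binds thioredoxin and restrains glucose uptake, and it carries GTAAACA in the window shown above. Its brightest probe set (1415996_at) gave 10.73, 10.22 and 10.33 in L-LY29 and 11.13 and 10.65 in H-LY29, with overlap between the doses. The difference of −0.47 did not pass (95% interval −1.03 to 0.10, adjusted p = 0.110). Without L-LY29 replicate 1, the highest of its dose, it was −0.62 and passed (adjusted p = 0.0484). The second probe set (1415997_at), designed from the same GenBank entry, gave 9.70, 8.77 and 8.89 in L-LY29 against 7.38 and 7.01 in H-LY29, and was higher by 1.93 (standard error 0.32, adjusted p = 0.00360). The mean of both was at 0.73 (adjusted p = 0.0487). Of the related arrestin-domain genes, *Arrdc1* was higher in L-LY29, at 1.70, and *Arrdc2*, *Arrdc3* and *Arrdc4* were lower, at −1.70, −1.65 and −0.89, where *Arrdc4* was at 0.73 with the mean of its probe sets.

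Read over all 23 tested probe sets, 11 were called higher in L-LY29 and 7 lower, while 5 did not pass. That makes 47.8% higher and 30.4% lower, where of all 23456 tested probe sets 72.8% were called, 29.0% higher and 43.7% lower. The doses did not overlap on 22 of the 23, and on 82.0% of all. Of the 6 genes with at least 2 called probe sets, *Fbxo32*, *Ccng2* and *Pink1* were called higher throughout, *Foxo3* lower throughout, and *Foxo1* both ways. *Foxo4* was called both ways too, but one of its calls, counted among the 11, was the probe set that passed the filter only through L-LY29. The second call of *Ccng2*, among the 11 as well, had H-LY29 values near the filter level. Over the array 43.3% of the 4197 genes with at least 2 called probe sets were called both ways, and so were 33.0% of the 1736 GenBank entries with at least 2. Probe sets in disagreement were therefore common among all genes on these arrays. Of the 25 probe sets 8 held the same value to the last digit on 2 or 3 L-LY29 arrays, and 0 did so on both H-LY29 arrays, which makes the spread within L-LY29 small for those.

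**Figure D3:**
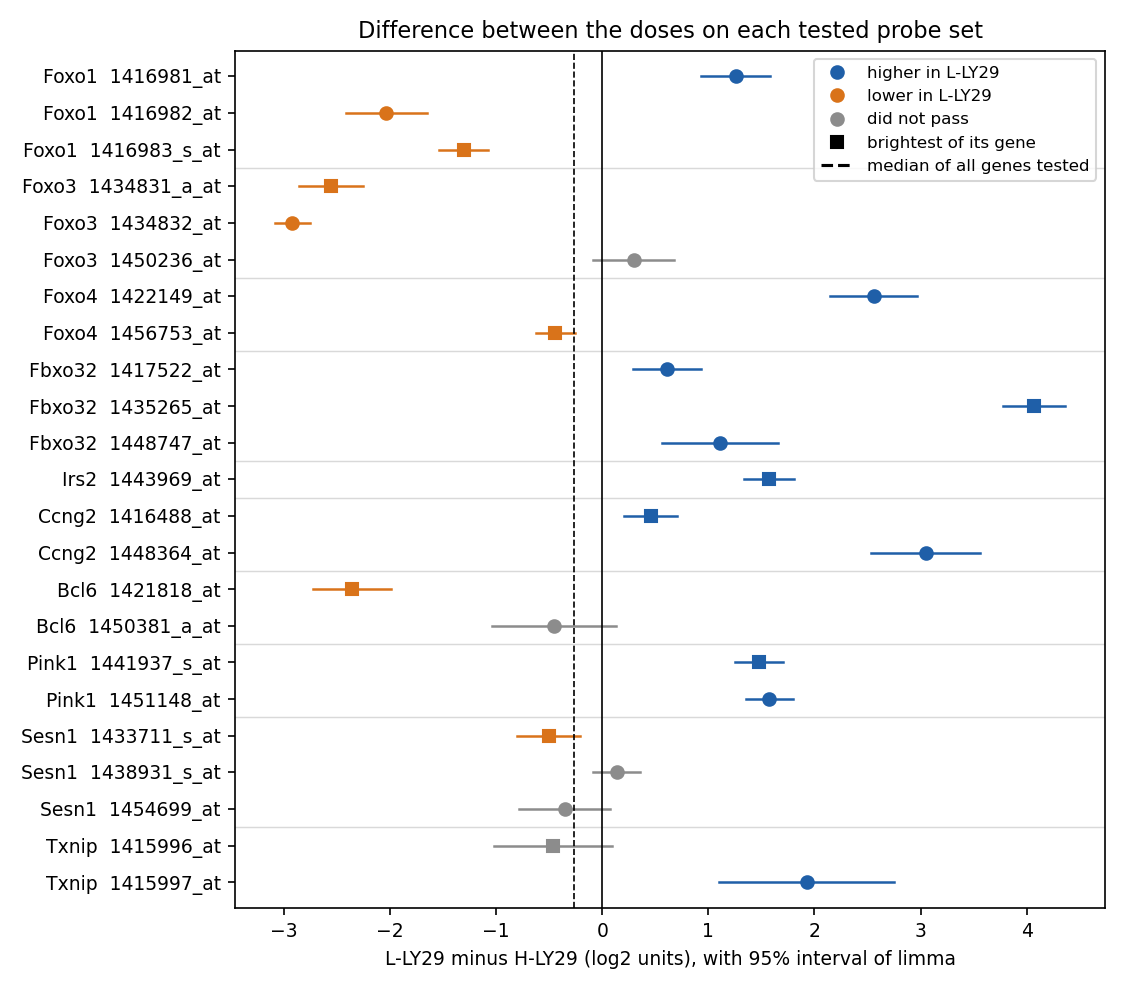
Difference, L-LY29 minus H-LY29, in log2 units for each of the 23 tested probe sets of 10 genes (points, with the 95% interval from limma as a bar), squares marking the brightest of each gene and the dashed line the median of all genes, −0.26. *Fbxo32*, *Irs2*, *Ccng2* and *Pink1* lie to the right of 0 on every probe set, and *Bcl6* to the left on both. *Foxo1*, *Foxo3*, *Foxo4*, *Sesn1* and *Txnip* lie on both sides, *Foxo4* through a probe set within the range of the poly-A controls in H-LY29.

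Within L-LY29, replicate 1 gave the highest signal of the dose for 7 of the 10 genes on their brightest probe sets, as it did for 23.6% of all genes. *Pink1* was highest on replicate 3, and for *Foxo4* and *Sesn1* the highest value was shared. The same replicate held the most ocular surface RNA, with a summed marker signal of 22705 against 4017 and 7384 on replicates 2 and 3. The part of that tissue in the signals was not tested. Without replicate 1 *Fbxo32* was at 4.02, *Foxo3* at −2.62 and *Bcl6* at −2.49, and the ocular surface sums on replicates 2 and 3 were still above the 229 to 275 of H-LY29.

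The wider set of genes that FoxO factors induce went both ways, in shares near those of all genes. Of 51 such genes listed, 42 were measured, with 19 lower and 9 higher in L-LY29, and 14 did not pass. These are 45.2% and 21.4%, close to the 46.6% and 27.1% of all genes, and the median was −0.14. After quantile normalization 15 were higher and 17 lower, and on the second brightest probe sets 18 were higher and 13 lower, so the list had no settled direction. Among those lower were the cyclin-dependent kinase inhibitors *Cdkn1b* (p27), at −1.31 (standard error 0.05, adjusted p = 5.66e-05), and *Cdkn1a* (p21), at −1.28. *Ddit4*, an mTORC1 inhibitor induced by stress, was lower by 3.55 log2 units (standard error 0.16, adjusted p = 6.77e-05), at 9.95 in L-LY29 against 13.51 in H-LY29. The autophagy gene *Atg12* was at −1.47 and the zinc finger gene *Klf6* at −1.49. Higher in L-LY29 were the angiopoietin *Angpt2* at 2.17 (adjusted p = 4.24e-04), the pocket protein *Rbl2* at 0.81, the autophagy kinase *Ulk2* at 0.65, the antiproliferative *Btg1* at 0.54 and the autophagosome protein *Map1lc3b* at 0.37. On the second brightest probe set the direction turned for *Cdkn1a* (0.30), *Atg12* (0.99) and *Angpt2* (−1.05). With the mean of the probe sets *Ulk2* (0.08) and *Btg1* (0.15) no longer passed. All 3 called probe sets of *Map1lc3b* were higher.

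Genes listed here as repressed by FoxO factors were counted as well, and 8 of 11 were measured. Whether FoxO factors repress each of them in this tissue was not tested. In L-LY29 5 were lower and 2 higher, and 1 did not pass, with a median of −1.62. These are 62.5% lower and 25.0% higher, beside 46.6% and 27.1% of all genes. Hexokinase 2 (*Hk2*) was at −2.89, the D-type cyclins *Ccnd2* and *Ccnd1* at −2.75 and −2.14, and *Cad*, of pyrimidine synthesis, at −1.54. *Plk1*, a mitotic kinase, was lower too. Its L-LY29 values of 4.82, 4.99 and 4.56 lay near the filter level of 4.77, so no size is read from it. *Ccnd1* was at 0.37 on its second brightest probe set. *Myc* was higher, at 0.64 (standard error 0.08, adjusted p = 0.00143). *Foxm1* was higher too, at 0.76, but at −0.70 to −0.64 without any single L-LY29 array, where another of its probe sets was the brightest.

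Of 46 listed regulators of FoxO proteins 43 were measured, and 26 were lower in L-LY29, 6 higher and 11 did not pass. The lower ones are 60.5%, beside 46.6% of all genes, and the median was −0.80. After quantile normalization 23 were lower and 12 higher, and without H-LY29 replicate 1 the number that were higher was 12 as well. Akt kinases phosphorylate FoxO factors directly: *Akt2* was higher in L-LY29, at 1.27 (standard error 0.09, adjusted p = 2.09e-04), on all 3 of its called probe sets. *Akt1*, named after its value was seen, was lower, at −0.33 (standard error 0.06, adjusted p = 0.00660), but at −0.02 after quantile normalization (adjusted p = 0.830) and at 1.73 on its second brightest probe set. The deacetylase *Sirt2* was higher, at 1.26 (adjusted p = 1.18e-04), with 12.52 in L-LY29 against 11.26 in H-LY29. The phosphatase subunit *Ppp2ca* was at 0.81, the ubiquitin ligase *Stub1* at 0.39 and the 14-3-3 gene *Ywhaq* at 0.37. Another 14-3-3 gene, *Ywhae*, was lower on all 3 of its called probe sets, at −1.39 (standard error 0.05, adjusted p = 4.84e-05). The kinase *Dyrk1a* was at −4.24, the nuclear import receptor *Kpnb1* at −1.59 and the ubiquitin ligase *Mdm2* at −1.47. The AMP-activated kinase subunit *Prkaa2* was lower too. Its L-LY29 values of 4.99, 4.90 and 4.73 lay near the filter level of 4.77, so no size is read from this probe set. *Prkaa2* was at 2.44 without H-LY29 replicate 1 and 1.85 without H-LY29 replicate 2, where another probe set was the brightest. The second brightest probe sets of *Dyrk1a* (0.13), *Kpnb1* (0.10), *Stub1* (−0.11) and *Ywhaq* (0.01) did not pass, that of *Mdm2* was at 1.76, and the mean of the probe sets of *Ppp2ca* was at −0.23.

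Of 21 listed paralogues and partners of the 10 genes 15 were measured, with 11 lower in L-LY29, 1 higher (*Arrdc1*) and 3 that did not pass, with a median of −1.65. These are 73.3% lower and 6.67% higher, beside 46.6% and 27.1% of all genes. Among those lower, *Arrdc4* and *Txn1* turned direction with the mean of the probe sets and with the second brightest one. *Ccng1* turned with these settings and with equal array medians. Thioredoxin reductase (*Txnrd1*), of the system that *Txnip* acts on, was at −2.13 (standard error 0.07, adjusted p = 4.84e-05) on 3 probe sets that were all lower. *Bcor*, which encodes a corepressor that BCL6 binds, was lower in L-LY29, the same direction as the brightest probe set of *Bcl6*. It gave 5.36, 4.97 and 5.31 in L-LY29 against 8.18 and 8.57 in H-LY29. The L-LY29 values lay near the medians of those arrays, 5.33, 5.35 and 5.33, so no size is read from it.

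**Figure D4:**
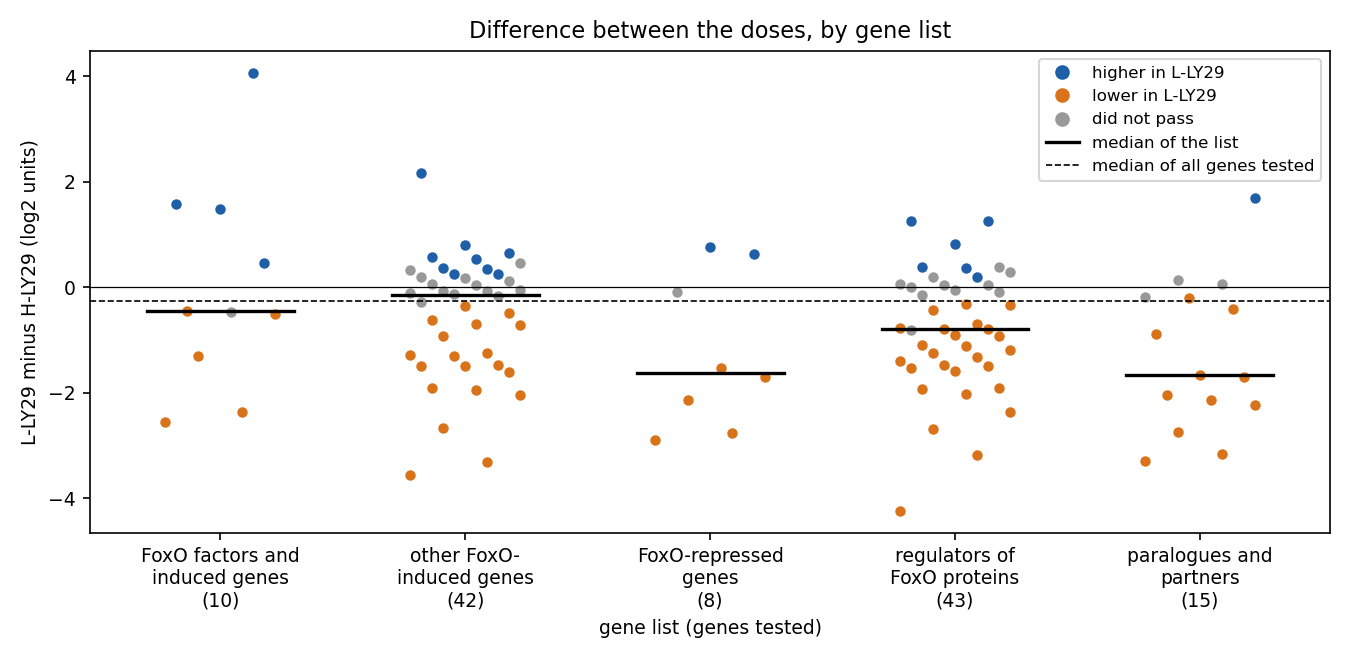
Difference, L-LY29 minus H-LY29, in log2 units of each tested gene (points, coloured by call) in 5 lists, with the number of genes in brackets, the median of a list as a line and the median of all genes, −0.26, dashed. The medians are −0.45, −0.14, −1.62, −0.80 and −1.65 from left to right, and each list holds genes on both sides of 0.

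Of all genes tested, those whose 5 centred values lay nearest to each factor were *Hadh* and *Plaat3* for *Foxo1*, at Euclidean distances of 0.054 and 0.074 log2 units, *Zfp469* and *Dnmt3a* for *Foxo3*, at 0.068 and 0.088, and *4632415L05Rik* and *Zfp449* for *Foxo4*, at 0.029 and 0.048. With 5 arrays in 2 groups such likeness mainly says that a gene differed between the doses by the same amount.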

How the data were processed

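Per the study's methods the authors normalised their datasets with MAS-5 in GeneSpring. For the 5 arrays used here they deposited log2 signals of 45101 probe sets. No source used here gives their scaling target. Sorted values of arrays of 1 dose nearly coincided, with a largest gap of 0.12, and those of different doses differed by up to 0.57. Whether the doses were normalised separately, or by a further step, is not settled here and would enter every difference between them. Values were used as deposited. Probe sets were kept if they named 1 gene and their mean signal reached the 40th percentile (4.77), which left 23456 probe sets and 12935 genes. Gene names came from the platform annotation. A gene was read from its brightest probe set. Doses were tested with lmFit and trended eBayes of limma 3.58.1 (R 4.3.3, two-sided), once over genes and once over probe sets, with Benjamini-Hochberg adjustment over all of them and a threshold of 0.05. Fold changes are 2 to the power of a log2 difference. The 10 genes were taken by name. Of the 4 further lists, up to 5 called genes in each direction with the smallest adjusted p were named. The genes and lists were chosen with earlier results of these data known. Markers of 9 tissues or cell types were summed on the linear scale, where the brightest genes weigh most. Sums of markers of oligodendrocyte precursors were 5074 to 6066 in L-LY29, against 5966 to 6642 in H-LY29. Astrocyte sums were 17442 to 20752 in L-LY29, against 22138 to 22866 in H-LY29, and microglia sums 11476 to 13443 in L-LY29, against 7982 to 8798 in H-LY29. Vessel sums, of 9 markers, were 972 to 1284 in L-LY29, against 1583 to 1715 in H-LY29. By gene, 2 of the 9 were called higher in L-LY29 (*Pecam1* and *Cldn5*), 4 lower (*Pdgfrb*, *Kcnj8*, *Flt1* and *Abcc9*), and 3 did not pass. Of 10 retina markers 3 were measured, with sums of 263 to 291 in L-LY29, against 397 to 581 in H-LY29. Of these *Rbpms* was called lower in L-LY29, at 5.43 against 7.95 in H-LY29, while *Rom1* and *Sag* did not pass. Alternatives were other filters, a floor under low values, other scalings, eBayes without the trend, a replicate block, each array left out, and other ways to read a gene from its probe sets.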

Additional observations from a re-analysis of the deposited data

How the results depend on the processing

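The number of genes called higher in L-LY29 among the 10 stayed at 3 to 6 over the 14 alternatives, and the number called lower at 2 to 6. With the mean of the probe sets 3 were lower, and with the second brightest probe set 2. Those settings put *Foxo4* at 1.06 and 2.56, both through a probe set within the range of the poly-A controls in H-LY29, which gives no size. They turned *Txnip* to 0.73 and 1.93, and the second brightest turned *Sesn1* to 0.14. *Foxo1*, *Foxo3*, *Fbxo32*, *Irs2* and *Pink1* kept their direction and call under each alternative run, none of which read *Foxo1* from its probe set that was higher, at 1.26. Each array left out in turn gave 3 to 4 genes higher and 5 to 6 lower, and 9 to 11 probe sets higher and 7 to 8 lower. With 1 H-LY29 array left, it was assumed to vary like the L-LY29 arrays. Other FoxO-induced genes called higher numbered 15 with quantile normalization or equal array medians, 18 with the second brightest probe set and 8 to 11 with an array left out. FoxO regulators called higher numbered 12, 12 and 13 with these settings, and 5 to 12 with an array left out. The counts of those called lower stayed within 1.5 times, at 17 to 21 and 24 to 27 with an array left out. The doses share only numbers 1 and 2. Deviations of same-numbered arrays from their dose means correlated at 0.01 and 0.02. The deviations of the 2 H-LY29 arrays mirror each other, so this check cannot say whether the numbers pair the arrays. The fit with the replicate number as a block, on replicates 1 and 2 of each dose, gave 4 genes higher and 6 lower, adding *Txnip* (−0.42, adjusted p = 0.0175), and changed no other call among the 10. The number of arrays limits the precision.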
